A study of Danio rerio with 4 samples.

Results

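The clusterin gene, clu, was described in embryonic zebrafish hearts with and without overexpression of the BMP ligand gene bmp2b. Its members were all probes that the platform annotation names clu, which gave 2 of 43603 probes, A_15_P149321 and A_15_P103863, for 1 of 15528 named genes. The gene was chosen by its large measured rise in this same comparison, so its levels and fold changes are given as a description without a test. Wild-type embryos and embryos carrying the transgene Tg(hsp70l:bmp2b)fr13, in which the heat shock promoter hsp70l drives bmp2b, all received a heat shock at 18 hours post fertilization (hpf), at 37 °C and lasting 30 min, so the controls had the same heat treatment without the transgene. Hearts were taken out manually between 21 and 23 hpf, and RNA from each pool of hearts was labelled with Cy3 and hybridised to a single-colour Agilent array. The 2 wild-type arrays lay on slides 1 and 2, and the 2 arrays of overexpressing embryos, called Bmp2b here, on slide 3, so genotype and slide cannot be told apart. Each array held a pool, and the number of embryos per pool is not given in the sources used here. In such bulk RNA, more cells that express clu and more clu RNA per cell cannot be told apart.

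Clusterin, also called apolipoprotein J in mammals, is a secreted glycoprotein that binds misfolded and aggregating proteins outside cells. It is made as a precursor that is folded and cleaved in the secretory pathway into a disulfide-linked heterodimer, travels partly with lipoproteins, inhibits the terminal complement complex, and is taken up by receptors of the LDL receptor family. In mammals its gene responds to heat and to several forms of cell stress, and in the mouse embryo it is expressed in the regions of the heart where valves form.

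The arrays differed in brightness, and this bears on raw values. The 75th percentile of raw intensity was 445 and 424 in wild type, and 93.5 and 250 on Bmp2b arrays 1 and 2. Between 57.1% and 57.4% of probes lay above background on the wild-type arrays, against 34.1% and 46.2% on the Bmp2b arrays, where background was set at 2 times the 5th percentile of raw intensity. Over 24 probes with 5 spots each, the root mean square difference between the wild-type arrays was 0.072 on the log2 scale, against 0.119 from the spread between spots, while that between the Bmp2b arrays was 0.907. The wild-type arrays therefore differed by less than the technical spread. These values do not show whether the wild-type arrays held separate pools of hearts. Some gene counts below are also given with the mean of these arrays as 1 sample, in a limma fit with a trend and robust variance prior. All 12 heart muscle markers lay above background on all 4 arrays, with normalized log2 levels of 16.87 to 17.31 for the brighter probe of the myosin light chain gene myl7. In limma with Benjamini-Hochberg adjusted p under 0.05, which called 9% of all 11376 genes tested higher and 8.22% lower, 4 of these markers fell, among them myh7 and tnnt2a, and 1 rose, myh6. A second tnnt2a probe, at a log2 fold change of -0.435, did not pass. The summed normalized level of the 12 markers was 916000 and 835000 in wild type and 767000 and 581000 on the Bmp2b arrays. Of 12 endothelial markers, 3 fell and 0 rose (0 higher also with unadjusted p under 0.05). The falls among muscle and endothelial markers did not pass with the wild-type mean as 1 sample. The bmp2b probe had normalized log2 levels of 7.86 and 8.09 in wild type and 13.74 and 14.03 on the Bmp2b arrays.

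In wild-type hearts clu gave a weak signal. The raw intensity of probe A_15_P149321 was 78 and 85 on the wild-type arrays, 2.36 and 2.66 times the background of each array. That of probe A_15_P103863 was 67 and 62.5, or 2.03 and 1.95 times background. Both probes were thus above background on both wild-type arrays, though near it, and they stood at the 54.7th to 58.7th percentile of all probes on those arrays.

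In Bmp2b hearts clu was far brighter although the arrays as a whole were dimmer. Probe A_15_P149321 read 582 on Bmp2b array 1 and 1591.5 on array 2, which is 11.6 and 33.2 times background. Probe A_15_P103863 read 245 and 727, or 4.9 and 15.1 times background. Every Bmp2b reading lay above every wild-type reading of the same probe before any normalization. The percentile among all probes was 89.9 and 89.4 for the first probe and 83.7 and 83.8 for the second. Without normalization the mean raw intensity was 13.3-fold higher in Bmp2b hearts for A_15_P149321, with 7.14-fold on array 1 and 19.5-fold on array 2. For A_15_P103863 it was 7.51-fold higher, with 3.78-fold and 11.2-fold on these arrays. With each reading divided by the background of its array, the ratios of the means were 8.92 and 5.03.

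**Figure D1:**
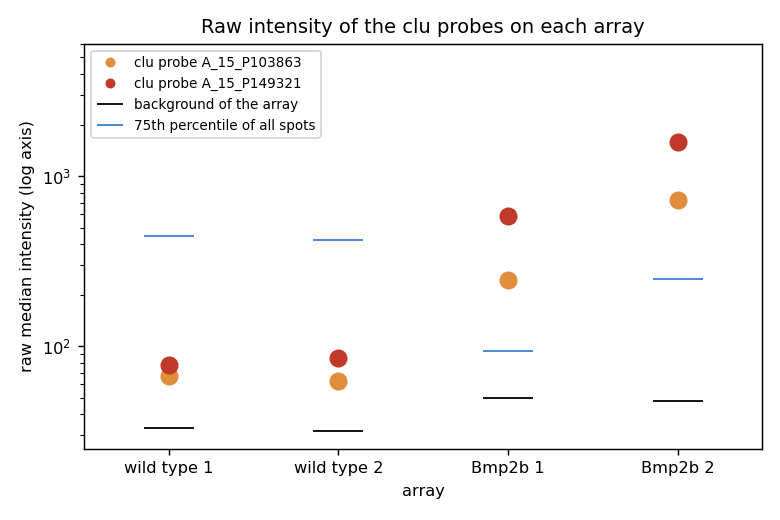
Raw median intensity (log axis) of the clu probes A_15_P149321 and A_15_P103863 on each of the 4 arrays, with the background of the array and the 75th percentile of all spots as short lines. Both probes lie just above background and below the 75th percentile in wild type (62.5 to 85) and above the 75th percentile on both Bmp2b arrays (245 to 1591.5).

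Both Bmp2b arrays gave nearly the same clu level once the arrays were quantile-normalized, though less so under some other scalings. After background correction and quantile normalization, the log2 level of clu by A_15_P149321 was 6.55 and 6.65 in wild type and 10.81 and 10.71 on the Bmp2b arrays. This is a log2 fold change of 4.16 ± 0.12 (SE from the limma fit over 4 arrays), or 17.9-fold. By A_15_P103863 the log2 level of clu was 6.45 and 6.44 in wild type and 9.61 and 9.62 on the Bmp2b arrays, a log2 fold change of 3.17 ± 0.11 (SE), or 8.99-fold. On neither probe did the groups overlap, which was also true of 34.9% of all genes tested on the higher side and 33.8% on the lower side. The fold was 18.6 on Bmp2b array 1 and 17.2 on array 2 for A_15_P149321, and 8.96 and 9.03 for A_15_P103863.

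The probes gave the same direction but not the same size. The raw intensity of A_15_P149321 was 1.16 and 1.36 times that of A_15_P103863 on the wild-type arrays, and 2.38 and 2.19 times on the Bmp2b arrays. Since both probes lay near background in wild type and the correction adds an offset of 50, the normalized folds depend on how background is treated. Across the 6 ways of correcting and scaling that were tried, the fold ran from 15.5 to 31.4 for A_15_P149321 and from 7.78 to 15.7 for A_15_P103863. The smallest folds came without background correction and the largest with the authors' processed intensities, and both probes were higher on both Bmp2b arrays in all 6.

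After quantile normalization the Bmp2b arrays differed widely for many genes but little for clu. The normalized level of clu on Bmp2b array 2 differed from that on array 1 by -0.11 log2 units for A_15_P149321 and by 0.01 for A_15_P103863, against a median absolute difference of 0.29 over all probes tested. Of 24454 probes tested, 20.1% differed less between the Bmp2b arrays than A_15_P149321 did, and 2.29% less than A_15_P103863. Between the wild-type arrays the median absolute difference was 0.06. There A_15_P149321 differed by 0.11, more than 73.7% of probes, and A_15_P103863 by -0.01, more than 6.88%. These values hold for quantile normalization. For A_15_P103863 the log2 levels on Bmp2b arrays 1 and 2 were 9.28 and 9.77 after cyclic loess. They were 9.37 and 9.65 on 75th-percentile scaling. For A_15_P149321 they were 10.58 and 10.82, and 10.52 and 10.75, in the same order. Some marker sums differed more between the Bmp2b arrays. The summed normalized level of 10 neural markers such as elavl3 and sox3 was 9910 and 9970 in wild type, 4560 on Bmp2b array 1 and 20200 on array 2. The sum of 9 epidermal markers, among them the keratin genes krt4 and krt5, was 11400 and 11800 in wild type, 5980 on array 1 and 68900 on array 2. On array 1, where both sums were below wild type, clu was 18.6-fold and 8.96-fold higher by its probes, and on array 2 17.2-fold and 9.03-fold. Single markers lay on either side of wild type on array 1, among them elavl3 (log2 difference -2.28), zic1 (0.72), krt5 (-2.31) and tp63 (0.83). The brightest epidermal marker, krt4, stood at log2 15.78 on array 2 and made up most of that sum. The part of these tissues in the clu values was not tested.

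Of 7 tested markers of pericardium and epicardium, 5 rose and 0 fell, where 9% of all genes were called higher and 8.22% lower. The markers tcf21 (log2 fold change 0.41) and podxl (0.34) did not pass. Among the markers that rose, other probes of cav1 (0.38 and 0.46) and tgm2b (0.31) did not pass, while those of sfrp5 did (2.13 and 2.36). With the wild-type mean as 1 sample, 2 of the 7 rose, where 0.448% of all genes were called higher and 0.404% lower. The markers that rose included aldh1a2, for a retinoic acid-synthesising enzyme, by 2.37 ± 0.12 and the secreted Wnt antagonist gene sfrp5 by 2.85 ± 0.24 (log2 fold change, SE). The summed level of all 7 was 46300 and 53500 in wild type and 94400 and 60400 on the Bmp2b arrays. Most of this sum came from podxl, at log2 15.39 and 15.61 in wild type and 16.20 and 15.47 on the Bmp2b arrays. It therefore does not follow the markers that rose. Probes of the defining markers wt1a and tbx18 were too dim to be tested. Of 8 endoderm and yolk markers 1 rose, the transferrin gene tfa, by 1.98 ± 0.23. By its brightest probe, though not by every tfa probe, this rise did not pass with the wild-type mean as 1 sample. The other tfa probes were at 2.51, 2.27, 1.87, 1.47 and 0.22. The summed level of the 8 was 15500 to 15800 in wild type and 22500 to 22600 on the Bmp2b arrays. The part of these cells in the clu values was not tested.

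Of all probes tested, limma called 6.82% higher and 9.03% lower. With unadjusted p under 0.05, 3817 of the 24454 probes were higher and 5135 lower. A_15_P149321 had the second largest rise after the probe of bmp2b itself, and A_15_P103863 ranked 13 of 24454. On Bmp2b array 1 alone their ranks were 4 and 18, and on array 2 alone they were 2 and 22. With one probe a gene, clu ranked 2 of 10622 genes with a full name, followed by ved, at a log2 fold change of 3.83. This rank was 2 under all 6 ways of correcting and scaling.

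**Figure D2:**
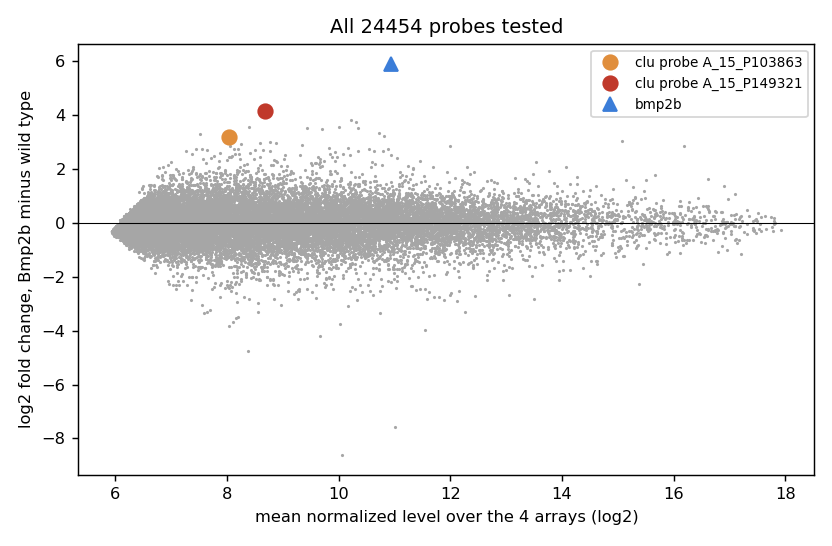
Log2 fold change (Bmp2b minus wild type) against mean normalized log2 level over the 4 arrays, 1 grey point for each of the 24454 probes tested. The clu probes stand at 4.16 and 3.17 among probes of modest mean level, below bmp2b at 5.91.

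The genes whose profile lay nearest to that of clu were found by Euclidean distance over the 4 arrays, after each gene's wild-type mean had been taken off, with A_15_P149321 standing for clu. The 8 nearest of 10621 genes were ved, sesn2, igfbp1a, fabp4a, slc1a4, olfm2a, isca1 and triqk, at distances of 0.57 to 1.83 log2 units. They share 4 arrays and the contrast by which clu was chosen, so the likeness is a description. The nearest, ved, encodes a homeobox repressor of the ventral embryo downstream of BMP, and its log2 level was 8.30 and 8.32 in wild type and 11.97 and 12.33 on the Bmp2b arrays. Next came sesn2, for the stress-responsive protein sestrin 2, at 6.69 and 6.56 in wild type and 10.28 and 10.07 on the Bmp2b arrays. The gene igfbp1a, for a secreted protein that binds insulin-like growth factors, had 8.59 and 8.60 in wild type and 12.44 and 11.79 on the Bmp2b arrays. For fabp4a, which encodes a fatty acid-binding protein, the log2 fold change was 3.32 ± 0.13, and for slc1a4, a neutral amino acid transporter gene, it was 3.24 ± 0.15.

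Farther from clu were olfm2a, of the olfactomedin family, at 2.93 ± 0.14, isca1, for an iron-sulfur cluster assembly protein, at 2.96 ± 0.22, and triqk at 2.90 ± 0.26. Not every probe of these genes showed this profile. The second probe of ved was at 3.52 and the other 2 igfbp1a probes were at 3.73 and 2.97. Second probes of sesn2, olfm2a and triqk were at 0.49, -0.65 and -0.14, and the other slc1a4 probes at 2.73, 0.61 and 0.65.

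**Figure D3:**
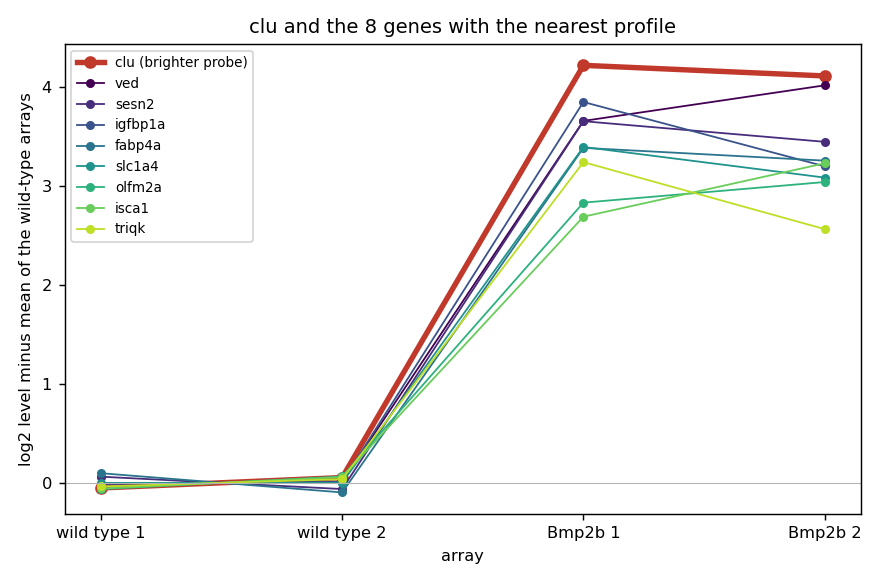
Normalized log2 level minus the mean of the wild-type arrays, by array, for clu (A_15_P149321, thick line) and the 8 genes with the nearest profile, each by its brightest tested probe. All 9 genes stay within 0.1 of 0 on the wild-type arrays, and clu is the highest on both Bmp2b arrays.

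The paralogue clul1, clusterin-like 1, did not show the profile of clu. Probe A_15_P561622 of clul1 had log2 levels of 9.40 and 9.33 in wild type, 10.17 on Bmp2b array 1 and 9.10 on array 2, so the Bmp2b arrays lay on either side of wild type. Its log2 fold change was 0.28 ± 0.39 (SE; limma adjusted p = 0.646, 95% interval -0.80 to 1.35). The other clul1 probe, A_15_P198856, read 9.08, 8.88, 9.54 and 8.50 on the same arrays, a log2 fold change of 0.04 ± 0.39 (limma adjusted p = 0.953, 95% interval -1.03 to 1.11). The difference between the paralogues was not tested.

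**Figure D4:**
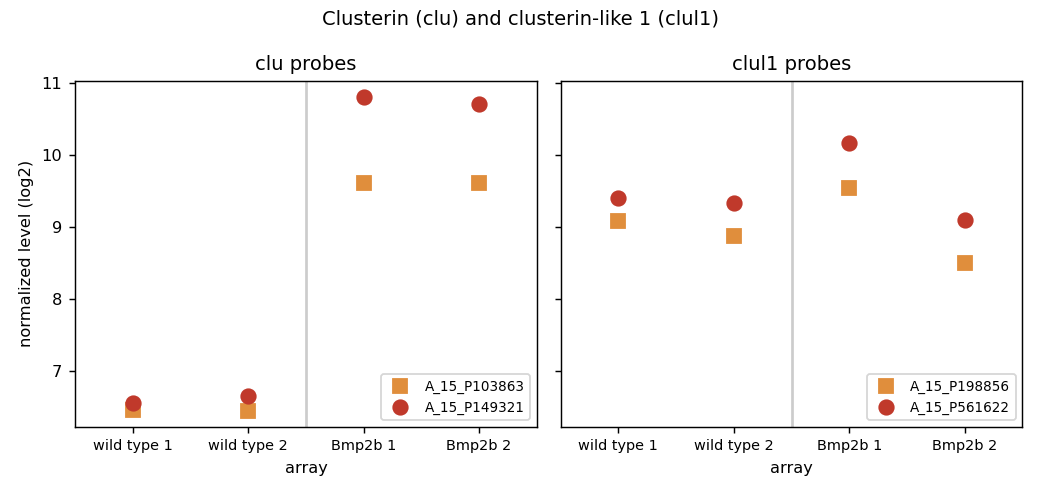
Normalized log2 level of both probes of clu (left) and of clul1 (right) on each of the 4 arrays. The clu probes go from 6.44 to 6.65 in wild type to 9.61 to 10.81 on the Bmp2b arrays, while the clul1 probes are higher than wild type on Bmp2b array 1 and lower on array 2.

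The genes that neighbour clu on its chromosome in the RefSeq gene table (assembly GRCz12tu, used here only for gene order) were examined next. Of the 5 protein-coding genes on each side, 8 were tested and 1 fell, where 8.22% of all genes were called lower. The adjacent gene reps1, for an endocytic adaptor, differed by 0.54 ± 0.16 on the log2 scale (limma adjusted p = 0.0974), and ccdc25, on the other side, by 0.01 ± 0.16 (adjusted p = 0.964). The chemokine gene ccl38.1 lay below background in 2 of 4 arrays and stood at 0.10 ± 0.13 on that scale (adjusted p = 0.598). The neighbour that fell was rcan2, for a calcineurin regulator, which dropped below background in Bmp2b hearts, an at least 2.73-fold decrease (adjusted p = 0.039). This call was lost with the wild-type mean as 1 sample (adjusted p = 0.159), 75th-percentile scaling (0.138), cyclic loess (0.0628) and the processed intensities (0.0552). The scavenger receptor gene scara3, directly beside clu, and cyp39a1 were too dim to be tested. In none of these 8 genes was there a rise past the threshold in limma, where 9% of all genes were called higher. With unadjusted p under 0.05, 1 of the 8 was higher, and with the wild-type mean as 1 sample 0 were called higher.

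Genes linked to clusterin by function were read from 8 lists, in which 123 different genes were tested, 12 rose and 19 fell, where 9% of all genes were called higher and 8.22% lower. The median log2 fold change of all genes tested was 0.01. The first list held lipoprotein receptors, their adaptors and other receptors such as stab2, megf10 and plxna4. Of 13 tested, 1 rose, 0 fell and 12 did not pass, with a median of 0.35. With unadjusted p under 0.05, 6 were higher and 0 lower, where 3817 of all 24454 probes tested were higher and 5135 lower. That share is over probes, while the list was counted by 1 probe a gene. Adjusted calls leaned differently over probes (6.82% higher, 9.03% lower) than over genes (9% and 8.22%). By their brightest probes, 12 of the 13 genes had a positive log2 fold change. Other probes of plxna4 (-0.77, limma adjusted p = 0.0424) and lrpap1 (-0.84, adjusted p = 0.0252) were called lower. Those of sort1a (-0.25), dab2 (-0.24), stab1 (-0.15) and dab1a (-0.08) were negative. Those of lrp1ab (0.40) and megf10 (0.11), and another probe each of plxna4 (0.015) and lrpap1 (0.014), were positive. Whether the list rose as a set was not tested. The gene that rose was stab2, for a scavenger receptor of endothelium, by 0.67 ± 0.11 (adjusted p = 0.0342). The very low density lipoprotein receptor gene vldlr, a clusterin receptor in mammals, was at 0.49 ± 0.11 (adjusted p = 0.0555). No probe was named for the receptor genes lrp2a and lrp8, so they were not tested.

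Apolipoprotein genes other than clu were mostly dim. Of 12 with a named probe, 5 were tested, and 0 rose or fell (limma; with unadjusted p under 0.05, 1 was higher and 1 lower). Over all genes, 9% were called higher and 8.22% lower, so few calls would be looked for among 5. The brightest, apoeb, for apolipoprotein E, was at 0.84 ± 0.27 (adjusted p = 0.108). Its log2 level was 11.93 and 11.80 in wild type and 12.36 and 13.05 on the Bmp2b arrays. The groups thus did not overlap, which was also true of 34.9% of all genes tested on the higher side. The median of the list was -0.15 on Bmp2b array 1 and 1.07 on array 2.

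Of 11 complement genes tested, 1 was higher, 2 were lower and 8 did not pass (median -0.04). Of all genes, 9% were called higher and 8.22% lower. The terminal component gene c6.2 rose by 2.06 ± 0.12 (log2 fold change, adjusted p = 0.0144), with levels of 9.49 and 9.62 in wild type and 11.57 and 11.66 on the Bmp2b arrays. The terminal component gene c7b also dropped below background in Bmp2b hearts, by at least 3.56-fold (adjusted p = 0.0138). Likewise cfp, for properdin, which stabilises the complement convertase, was at least 2.35-fold lower (adjusted p = 0.0171). Of other secreted proteins listed beside clu, 3 of 10 with a named probe were tested, and hp, hpx, ttr, fga, fgb and fgg were among those too dim. Of these 3, 2 rose and 0 fell. They were sparc, for a collagen-binding matrix protein, by 1.49 ± 0.14 (adjusted p = 0.0203) and serpinf1, for a secreted serpin, by 0.78 ± 0.11 (adjusted p = 0.0293). A second sparc probe, at 0.17, did not pass.

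For the machinery that folds and cleaves secreted precursors, 29 genes were tested. By their brightest probes, 2 rose, 3 fell and 24 did not pass, where 9% of all genes were called higher and 8.22% lower. The median was 0.02. The lower ones were furinb, for a proprotein convertase, by 1.36 ± 0.14 (log2 fold change -1.36, adjusted p = 0.021), the calcium-binding chaperone gene calr (-0.89, adjusted p = 0.0247) and the co-chaperone gene dnajb9b (-0.85, adjusted p = 0.0334). The paralogue furina was at 1.25 ± 0.29 by its brightest probe (adjusted p = 0.0602) and at 0.135 by another (adjusted p = 0.85). On that other probe the Bmp2b arrays lay on either side of wild type. A second furinb probe, at 0.81, did not pass. Further calr probes were at -0.961, which passed, and at -0.438 and -0.339, which did not. On the calr probes that did not pass, the Bmp2b arrays lay on either side of wild type. The higher ones were pdia6 and manf, at 0.66 and 0.62. Further pdia6 probes, at -0.09 and 0.63, did not pass. Some genes that did not pass by their brightest probe had other probes that did. Those of dnajb11 (-1.248 and -1.28), calr3b (-1.692 and -1.506), pcsk7 (-0.735) and hspa5 (limma adjusted p = 0.0321) were lower. That of pdia4 (0.752) was higher. Still other probes of calr3b (-0.678) and pdia4 (-0.052) did not pass. The brightest calr3b probe was at 0.571, so the direction of calr3b is unsettled.

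Heat shock genes, a group that mammalian clusterin resembles in its heat response, were called lower more often than higher. The list held mainly cytosolic chaperones, with the mitochondrial hspd1 and hspe1, the collagen chaperone gene serpinh1b of the endoplasmic reticulum and the factors hsf1 and hsf2. Of 27 tested, 2 rose, 8 fell and 17 did not pass, where 9% of all genes were called higher and 8.22% lower. The median was -0.49, and 7 of the 27 had a positive log2 fold change. Whether the list fell as a set was not tested. A small heat shock protein gene, hspb1, rose by 2.86 ± 0.13 (adjusted p = 0.0138), while hsp70l, whose promoter drives the transgene, fell by 2.59 ± 0.28 (adjusted p = 0.0217). The co-chaperone genes dnajb1b and dnaja2a were at -2.42 ± 0.14 and -1.67 ± 0.12 (adjusted p = 0.0152 and 0.0181). The heat shock factor gene hsf1 was at -0.20 ± 0.21 (adjusted p = 0.538), and its sign turned without Bmp2b array 1.

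Of 22 genes for factors reported to act on the mammalian clusterin gene, 1 rose, 5 fell and 16 did not pass (median -0.12). Again, 9% of all genes were called higher and 8.22% lower. The NF-kB subunit gene nfkb2 rose by 1.21 ± 0.13 (adjusted p = 0.0217). The AP-1 gene fosl2 was at -0.98 ± 0.13 and mycb, for a Myc factor, at -0.84 ± 0.11 (adjusted p = 0.0261 and 0.0273). Among intracellular partners of clusterin and caspases, 3 of 13 tested rose, 1 fell and 9 did not pass (median 0.18). The survival gene bcl2a rose by 1.80 ± 0.14 (adjusted p = 0.019), and so did the p53 target bbc3, which encodes a pro-apoptotic protein, by 1.30 ± 0.14 (adjusted p = 0.0218), and the caspase gene casp9, by 1.04. The brightest probe of commd1, for a copper and NF-kB regulator, fell by 1.80 ± 0.15 (adjusted p = 0.019), but another commd1 probe was higher by 1.14 (adjusted p = 0.0262), so its direction is unsettled.

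**Figure D5:**
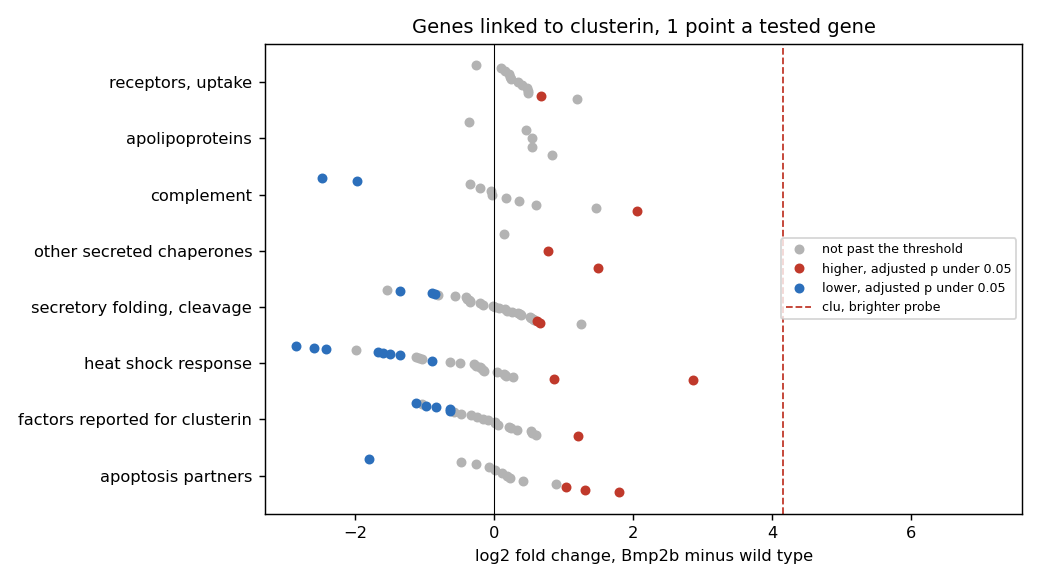
Log2 fold change (Bmp2b minus wild type) of each tested gene in the 8 lists, coloured by whether it passed an adjusted p under 0.05 in limma, with clu (4.16) as a dashed line. The members lie between -2.85 and 2.86. Since clu was chosen for its large rise, its place above them is only a description.

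These counts depend on how the wild-type arrays enter the fit. With their mean as 1 sample, 2 of the 123 genes were called higher (c6.2 and hspb1) and 5 lower (c7b, cfp, commd1, dnajb1b and hsp70l), against 0.448% of all genes higher and 0.404% lower. Without either wild-type array limma called 0 of them (with unadjusted p under 0.05, 9 to 10 higher and 18 lower), and without one Bmp2b array it called 44 to 47 higher and 46 to 49 lower, since the spread then comes from the wild-type arrays. With scaling to the 75th percentile, 2 of the 12 and 6 of the 19 kept their call.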

How the data were processed

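The authors deposited raw median intensity per spot, per the file headers, for 43803 spots on each of 4 arrays, and a table of processed intensities of the same spots with a background treatment not stated in the sources used here. The submitters' processing notes name Agilent Feature Extraction, without a version. Raw intensities were corrected by normexp (offset 50, no background column), log2-transformed, quantile-normalized and averaged over the spots of a probe. Probes above background on at least 2 of 4 arrays were tested by limma 3.58.1 in R 4.3.3, two-sided, with Benjamini-Hochberg adjustment over 24454 probes and a threshold of 0.05. Each gene was read from the brightest of its tested probes. There were 11376 such genes, and 4266 had several tested probes. Of all probes, 23667 had 1 gene symbol and 19936 were unnamed. "At least" folds set the bright group against the dim group raised to the lowest value of probes above background on each array. Nothing in the labels says that the samples came from separate crosses, so p-values measure the spread between these arrays. Their number limits the precision, and saturation flags were not used here. Log2 fold changes of dim probes are understated by the offset.

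The members and gene lists were chosen with earlier results of these data known. Named genes were clu, bmp2b, hsp70l and clul1, 6 genes by role (lrp2a, lrp8, vldlr, hsf1, furina, apoeb), the 3 or fewer genes per list that passed with the lowest p, the 2 nearest tested neighbours of clu on each side, and the 8 nearest profiles among genes without provisional names. Other names (casp9, pdia6, manf and the tissue markers) were picked after their values were seen. The fit was tested on simulated data. The alternatives were other scalings and background corrections, the filter, the variance prior, slide and sample number as blocks, and leaving out each array. A planned search of promoter motifs was not run, since no promoter sequence was used here.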

Additional observations from a re-analysis of the deposited data

How the results depend on the processing

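The rise of clu kept its direction on both probes under every alternative tried. For A_15_P149321 the log2 fold change was 4.40 on 75th-percentile scaling, 4.47 after cyclic loess, 3.95 without background correction, 4.78 with a normexp offset of 16 and 4.97 with the processed intensities, and 4.11 to 4.21 when one array was left out. For A_15_P103863 it was 3.49, 3.43, 2.96, 3.83 and 3.97 in the same order, and 3.16 to 3.17 (3.163 to 3.175) when one array was left out. Scaling to the 75th percentile moved the median of all probes by 0.34, from -0.06 to 0.28; single genes moved either way.

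Of all probes, 1668 were called higher and 2208 lower. Scaling to the 75th percentile gave 493 and 378, and 4 and 6 of the list genes. The wild-type mean as 1 sample gave 76 and 113 probes and 2 and 5 list genes with a trend and robust prior, and 0 and 1 probes and 0 and 0 list genes without it (1264 and 1690 probes with unadjusted p under 0.05). Slide as a random block gave 0 and 1 probes and 0 and 0 list genes (2176 and 2996 likewise). Leaving out one array gave 0 to 7462 probes higher, 1 to 9565 lower, 0 to 47 list genes higher and 0 to 49 lower; fewer arrays, and which group supplies the spread, change here. The cause of the drop under the other scaling was not tested.

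The labels number the samples 1 and 2 in each group, but deviations of same-numbered samples correlated with r = 0.093 and nothing says that they were paired; with the replicate block 1347 probes were higher and 1709 lower, and 10 and 19 list genes. Of the named genes, 4 changed sign somewhere: ccdc25 (-0.29 under the 75th-percentile scaling, -0.002 after cyclic loess, -0.15 to 0.174 without one array, among them -0.026 without wild-type array 2 and -0.15 without Bmp2b array 2, -0.018 as the mean over probes), ccl38.1 (-0.10 with the processed intensities), clul1 (-0.26 without Bmp2b array 1, up to 0.809 without array 2) and hsf1 (0.058 without Bmp2b array 1, down to -0.451 without array 2). Signal near background in wild type limits how well the size of the clu rise is known.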
